A study of Mus musculus with 4 samples.

Results

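The Hox genes encode homeodomain transcription factors and are arranged in 4 chromosomal clusters. All symbols of the deposited gene table made of Hox, a cluster letter from a to d and a number were taken, which gave 39 of the 55418 genes listed. There were 11 genes in HoxA, 10 in HoxB, 9 in HoxC and 9 in HoxD. In the genome build GRCm38, the genes of HoxA span chr6:52155590-52260880, those of HoxB chr11:96194316-96368256, those of HoxC chr15:102921103-103036852 and those of HoxD chr2:74668310-74765142. RNA-seq was carried out on 2 WT cultures and on 2 cultures labelled Pim3-/- of the mouse embryonic stem cell (ESC) line E14, whose strain is given as 12910la. Both groups grew on gelatin with serum and the cytokine LIF. The study made 2 Pim3-/- clones with Cas9 and a pair of guide RNAs directed at exons 4 and 6 of Pim3, which encodes a serine/threonine kinase. Which replicate is which clone, and whether the WT cultures went through transfection, are not given in the sources used here. Genotype, clone and culture therefore cannot be told apart, and the p-values measure only the spread between these libraries.

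As background, the genes of a Hox cluster lie side by side, and their order along the chromosome matches the order of their expression domains along the head-to-tail axis of the embryo. The low numbers are used anteriorly and early, and the high numbers posteriorly and late. In undifferentiated ESCs the clusters are held largely silent by Polycomb proteins, and retinoic acid, WNT and FGF signals together with Cdx factors open them during differentiation. Genes with the same number in different clusters are paralogs and descend from 1 ancestral gene.

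The gene table held 22029427 to 25668307 counts per library. Levels below are CPM, counts divided by the library size after scaling with edgeR's TMM factors, and errors beside them are SDs of 2 libraries. SE stands for the standard error of a log2 fold change (log2FC), Pim3-/- over WT. In each library 3 counts, the limit that a count of 0 allows, stood for 0.112 to 0.157 CPM. Such limits, like the intervals given below for ratios, cover counting error only. Counts of Pim3 itself were 4392 and 4953 in WT against 4970 and 4804 in the libraries labelled Pim3-/-, a log2FC of -0.27 (SE 0.17, Benjamini-Hochberg adjusted p = 0.251 in the quasi-likelihood test of edgeR). A sum over the whole gene does not show a small deletion or insertion, so this count does not check the labels. The paper checked its clones by sequencing, qPCR and western blot, and reports that PIM3 protein was lost. In the libraries labelled Pim3-/-, 27383 and 27508 genes had a count, against 24239 and 24696 in WT. The 1405 olfactory receptor genes, which serve the sense of smell, had 18.7 and 16.3 CPM in WT against 18.1 and 26.5 CPM, and the 332 vomeronasal receptor genes 4.38 and 5.56 against 6.29 and 7.67 CPM. The part of this in the Hox values was not tested.

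Hox transcripts were scarce in WT ESCs and more abundant in the libraries labelled Pim3-/-. All 39 genes together had 224 and 265 counts in WT, against 1038 and 1358. This is 11.7 and 11.7 CPM against 38.9 and 52.6 CPM, and the sum was 3.91 times as high in the group labelled Pim3-/-. Counts were found for 22 and 27 Hox genes in WT, and for 37 and 39 genes in the libraries labelled Pim3-/-. The mean CPM was higher in the group labelled Pim3-/- for 39 of 39 genes. For 34 of 39, both libraries labelled Pim3-/- lay above both WT libraries, and for 0 they lay below. Of the 31418 genes with any count, 32.1% lay above in this way. In bulk RNA, more cells with Hox transcripts and more transcripts per cell cannot be told apart.

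**Figure D1:**
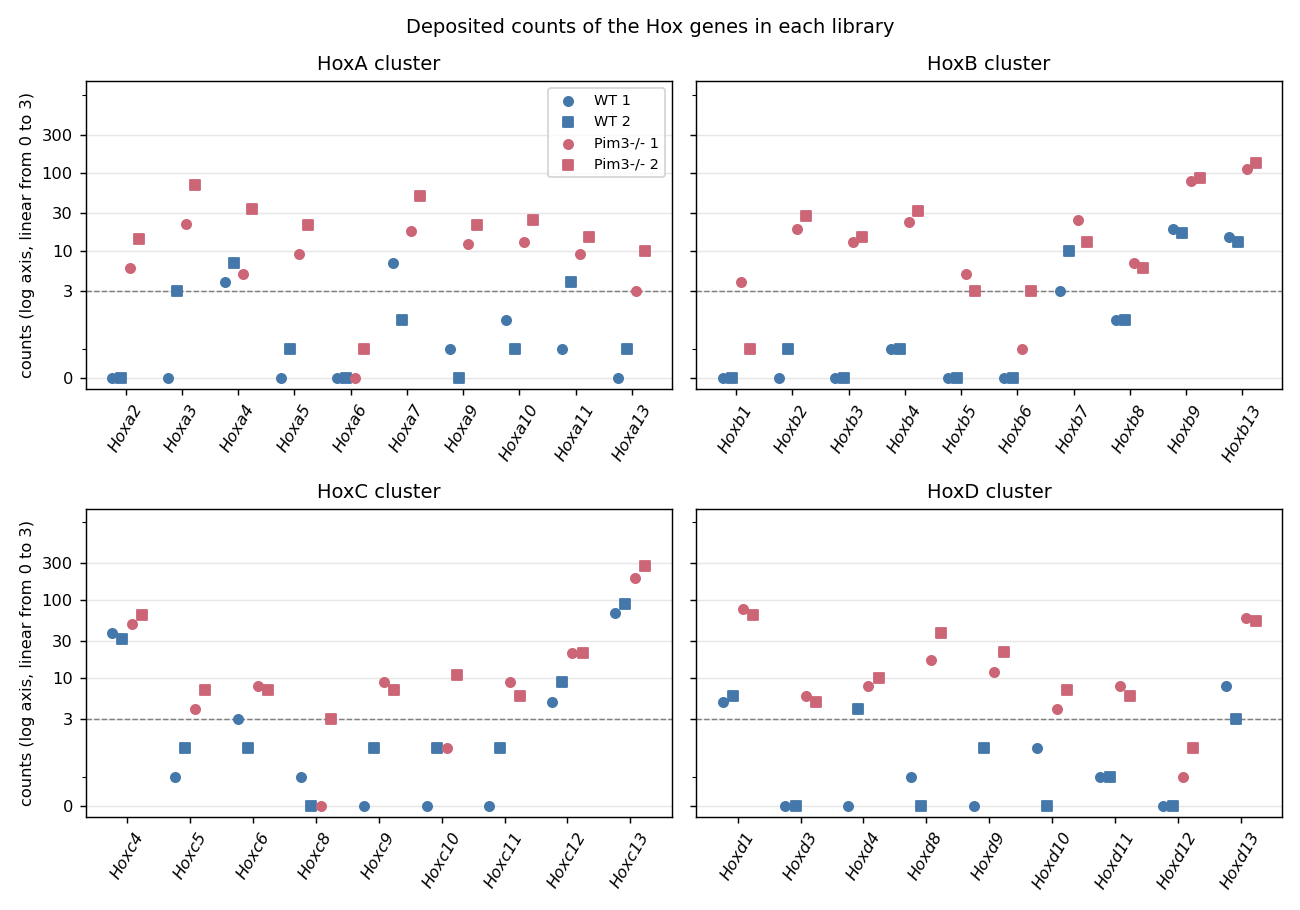
Deposited counts of the Hox genes (x axis, by cluster, all but 1 of the 39) in the 2 WT (blue) and 2 Pim3-/- (red) libraries, on a log axis that is linear from 0 to 3 counts, with a dashed line at 3 counts. Of all 39 genes, 34 were higher in CPM in both Pim3-/- libraries than in both WT libraries, against 32.1% of the 31418 genes with any count. At most 3 counts in both WT libraries were found for 26 of the 39.

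Without a filter on low counts, all 39 genes entered the fit. With edgeR's quasi-likelihood test and an adjusted p under 0.05, 17 rose and 0 fell, where 9.1% of all 31418 genes rose and 9.47% fell in that fit. With the filter of edgeR, 18 Hox genes were tested, of which 15 rose, 0 fell and 3 (Hoxb7, Hoxc4 and Hoxc12) did not pass. Of all 18444 tested genes 17.6% rose and 16.2% fell. With a fold change of at least 3 as well, 14 Hox genes rose and 0 fell, where 8.47% of the tested genes rose and 1.38% fell. However, 13 of the 18 met the filter through the libraries labelled Pim3-/- alone. Of these 13, 11 rose, a number that is a description, since the filter favours genes that are high in those libraries. Only 5, among them Hoxb9, Hoxb13, Hoxc4 and Hoxc13, met it on the WT libraries by themselves, and 4 of these rose, against 14.3% of the 16018 genes that did so. The log2 fold changes of these 5 Hox genes ran from 0.36 (Hoxc4) to 2.80 (Hoxb13), where the median of all tested genes was 0.07. The median of the 18 genes was 3.12, or 2.90 with the gene at 0 in WT set to its bound, and since the filter favoured high values in 13 of them it is not set against that of all genes. In the range of mean CPM that the tested Hox genes covered, 22.9% of the genes rose. The calls rested on both WT libraries. Without WT replicate 1 only Hoxd1, Hoxb13 and Hoxd13 kept an adjusted p under 0.05, and the other 12 had values of 0.0514 to 0.233 in edgeR's test. Without WT replicate 2 Hoxd1, Hoxb13 and Hoxa3 did, and the others had 0.0507 to 0.266. In these smaller fits 2.03% and 2.95% of all tested genes rose, and the log2 fold changes of the 15 genes were at least 1.16.

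**Figure D2:**
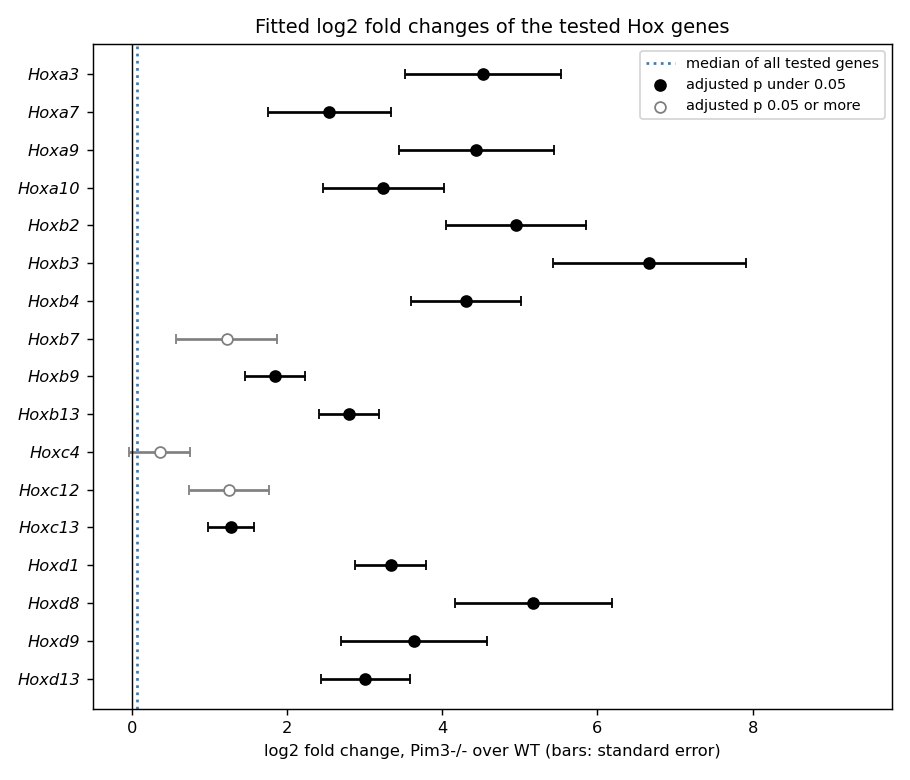
Log2 fold changes of the tested Hox genes (all but 1 of the 18), Pim3-/- over WT (x axis, bars: standard errors), with filled points at an adjusted p under 0.05 and a dotted line at the median of all tested genes. All points lie above 0, and the 3 open ones are Hoxb7, Hoxc4 and Hoxc12. The value of Hoxb3, at 0 in WT, depends on the prior count of the fit and is no bound.

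In HoxA, all 5 tested genes rose, where 17.6% of all tested genes did. The 4 described here came from near 0. They met the filter through the libraries labelled Pim3-/- alone, so their number is a description. Hoxa3, needed for the pharyngeal arches, had 0 and 3 counts against 22 and 69, a ratio of scaled counts of 24.2 (95% interval 8.01 to 119, exact binomial) and a log2FC of 4.52 (SE 1.00, Benjamini-Hochberg adjusted p = 0.0144 in the quasi-likelihood test of edgeR). Hoxa7, with 7 and 2 counts against 18 and 50, had a log2FC of 2.54 (SE 0.79, adjusted p = 0.0424). In HoxA the posterior genes were involved as well. Hoxa9, a regulator of blood progenitors, had 1 and 0 counts against 12 and 21, a ratio of 26.3 (4.40 to 1069) and a log2FC of 4.44 (SE 1.00, adjusted p = 0.0152). Hoxa10, which patterns the uterus and the limb, had 2 and 1 counts against 13 and 25, a ratio of 10.1 (3.20 to 51.1) and a log2FC of 3.24 (SE 0.78, adjusted p = 0.0186). These 4 lost their calls without WT replicate 1, with adjusted p of 0.075 to 0.141, and without WT replicate 2 Hoxa7, Hoxa9 and Hoxa10 did, with 0.171 to 0.266. Without Pim3-/- replicate 2, Hoxa9 was no longer tested and Hoxa7 had an adjusted p of 0.0946.

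The other HoxA genes were below the filter. Hoxa2, with 0 and 0 counts against 6 and 14, was at least 2.66-fold higher, computed against 3 counts per WT library (1.56-fold from Pim3-/- replicate 1 alone), and had an adjusted p of 0.0315 in the fit with edgeR and no filter. Hoxa5, a regulator of lung development, had 0 and 1 counts against 9 and 21, a ratio of 23.9 (3.97 to 975), and an adjusted p of 0.0219 in that fit. These 2 are the genes added by dropping the filter. Hoxa4 had 4 and 7 counts against 5 and 34, so that its high value came from 1 library and the groups overlapped in CPM. Hoxa11 had 1 and 4 counts against 9 and 15, a ratio of 3.82 (1.43 to 12.8), and Hoxa13, which marks the distal limb, 0 and 1 against 3 and 10. Hoxa6 had 1 count in the 4 libraries together. In HoxA the libraries labelled Pim3-/-, which the paper describes as different clones, differed between themselves. Replicate 2 was above replicate 1 in CPM for 11 of 11 genes and 1.69 times as high in their sum. Among the 11, Hoxa6 rests on 1 count. The difference was not limited to HoxA, since replicate 2 was above for 28 of all 39 Hox genes. In HoxC its sum was 1.41 times as high. Among the 18444 tested genes replicate 2 was above replicate 1 for 47.2%.

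In HoxB, 5 of 6 tested genes rose, against 17.6% of all tested genes, and among them was the gene at the posterior end. Hoxb2, Hoxb3, Hoxb4 and Hoxb7 met the filter through the libraries labelled Pim3-/- alone. Hoxb13, the most posterior gene, lies apart from the others and is known for the tail bud and the prostate. It had 15 and 13 counts in WT against 113 and 134, with levels of 0.678 ± 0.15 and 4.71 ± 0.68 CPM (SD, n = 2). This was a log2FC of 2.80 (SE 0.38, Benjamini-Hochberg adjusted p = 0.00467 in the quasi-likelihood test of edgeR), and the call held without any single library. Hoxb9 had 19 and 17 counts against 78 and 86 and a log2FC of 1.84 (SE 0.39, adjusted p = 0.0123). It was the highest HoxB gene in WT, with 43.2% of the cluster's CPM, whereas in the group labelled Pim3-/- Hoxb13 was, with 40.6%. The anterior genes that rose were close to 0 in WT. Hoxb2, a hindbrain gene, had 0 and 1 counts against 19 and 28, a ratio of 37.4 (6.40 to 1510) and a log2FC of 4.96 (SE 0.90, adjusted p = 0.00833). Hoxb3 had 0 and 0 counts against 13 and 15 and was at least 3.70-fold higher, with an adjusted p of 0.011. Hoxb4, known for expanding blood stem cells, had 1 and 1 counts against 23 and 32, a ratio of 21.9 (5.78 to 185) and a log2FC of 4.31 (SE 0.71, adjusted p = 0.00645). Hoxb7 had 3 and 10 counts against 25 and 13, and its log2FC of 1.22 (SE 0.65) did not pass (adjusted p = 0.178). Hoxb8 had 2 and 2 counts against 7 and 6, a ratio of 2.59 (0.80 to 10.9). Hoxb1, Hoxb5 and Hoxb6 had no count in WT and at most 5 in a library labelled Pim3-/-. For all 10 HoxB genes both libraries labelled Pim3-/- lay above both WT libraries, as they did for 32.1% of the 31418 genes with any count. Hoxb1, Hoxb3, Hoxb5 and Hoxb6 were at 0 in WT, where 1 count in each library labelled Pim3-/- is enough for this. The same held for all 9 HoxD genes. The calls of Hoxb2, Hoxb3, Hoxb4 and Hoxb9 were lost without WT replicate 1, with adjusted p of 0.0723 to 0.111, and without WT replicate 2 they were lost with 0.0507 to 0.136. Hoxb3 was not tested without Pim3-/- replicate 2.

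HoxC was the cluster with the most transcript in WT and the smallest ratio between the groups. Hoxc13, a regulator of hair and nail keratins at the posterior end of the cluster, was the highest Hox gene in all 4 libraries. It had 68 and 89 counts in WT against 195 and 279, with levels of 3.74 ± 0.27 and 9.05 ± 2.48 CPM (SD, n = 2). The log2FC was 1.27 (SE 0.30, Benjamini-Hochberg adjusted p = 0.0168 in the quasi-likelihood test of edgeR). Its adjusted p was 0.172 without WT replicate 1, and 0.124 without WT replicate 2. Hoxc13 held 61.1% of the HoxC CPM in WT and 67.5% in the group labelled Pim3-/-. Hoxc4, at the other end, was the exception among the higher genes, with 38 and 32 counts against 50 and 64, and a log2FC of 0.36 (SE 0.39, adjusted p = 0.496). Hoxc12 had 5 and 9 counts against 21 and 21 and a log2FC of 1.25 (SE 0.52), which did not pass (adjusted p = 0.097) except with library totals and no TMM factors (adjusted p = 0.0346). Hoxc10 had 0 and 2 counts against 2 and 11, and its groups overlapped in CPM. Hoxc5, Hoxc6, Hoxc8, Hoxc9 and Hoxc11 had at most 9 counts in any library. Among these the ratio was 5.97 for Hoxc11 (1.39 to 53.8), with 0 and 2 counts against 9 and 6, and Hoxc9 had 0 and 2 against 9 and 7, while for Hoxc5 (2.92, 0.77 to 16.3) and Hoxc6 (2.39, 0.83 to 8.41) the interval included 1.

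HoxD was nearly without transcripts in WT, with 17 and 16 counts over 9 genes, and had 193 and 210 counts in the libraries labelled Pim3-/-. All 4 tested genes rose, where 17.6% of all tested genes did. These 4 met the filter through the libraries labelled Pim3-/- alone, so their number is a description. Hoxd1, at the anterior end, had 5 and 6 counts in WT against 77 and 65, with levels of 0.263 ± 0.0027 and 2.70 ± 0.26 CPM (SD, n = 2). Its log2FC of 3.33 had an SE of 0.46 and a Benjamini-Hochberg adjusted p of 0.00467 in the quasi-likelihood test of edgeR, and it passed without any single library. Hoxd13, at the posterior end and needed for the digits, had 8 and 3 counts against 60 and 55 and a log2FC of 3.01 (SE 0.57, adjusted p = 0.00945). Hoxd8 had 1 and 0 counts against 17 and 38, a ratio of 43.8 (7.54 to 1762) and a log2FC of 5.17 (SE 1.01, adjusted p = 0.0101). Hoxd9 had 0 and 2 counts against 12 and 22, a ratio of 13.5 (3.47 to 116) and a log2FC of 3.63 (SE 0.94, adjusted p = 0.0235). Without WT replicate 2 Hoxd13, Hoxd8 and Hoxd9 had adjusted p of 0.0816, 0.0818 and 0.0849. Without WT replicate 1 Hoxd8 had 0.0514 and Hoxd9 0.233, and Hoxd9 was not tested without Pim3-/- replicate 2. Hoxd4 had 0 and 4 counts against 8 and 10, a ratio of 3.59 (1.18 to 14.6), and Hoxd3, at 0 in WT with 6 and 5 counts otherwise, was at least 1.45-fold higher. Hoxd10, Hoxd11 and Hoxd12 had at most 8 counts in any library.

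The 250 bases upstream of the start of 3 HoxD genes are shown because these genes, whose promoters differ in their CG content, rose together in this cluster, which runs from Hoxd13 through Hoxd8 to Hoxd1. They were taken from RefSeq on GRCm38.p6, and they were chosen after the values were seen. All 3 are on the + strand and read 5′ to 3′, with each CG dinucleotide, the site of DNA methylation, in capitals. Hoxd13 lies at chr2:74667975-74668224, Hoxd8 at chr2:74704365-74704614 and Hoxd1 at chr2:74762730-74762979.
Hoxd13: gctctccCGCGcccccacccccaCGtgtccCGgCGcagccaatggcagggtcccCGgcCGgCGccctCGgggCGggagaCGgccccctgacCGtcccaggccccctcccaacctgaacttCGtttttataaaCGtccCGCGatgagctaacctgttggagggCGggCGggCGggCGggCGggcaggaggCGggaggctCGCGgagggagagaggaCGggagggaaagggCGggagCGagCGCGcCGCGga
Hoxd8: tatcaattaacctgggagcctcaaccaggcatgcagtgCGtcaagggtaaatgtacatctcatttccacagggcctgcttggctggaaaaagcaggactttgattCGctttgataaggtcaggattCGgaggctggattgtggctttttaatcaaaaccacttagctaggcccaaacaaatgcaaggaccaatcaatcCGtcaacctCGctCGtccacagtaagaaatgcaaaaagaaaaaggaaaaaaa
Hoxd1: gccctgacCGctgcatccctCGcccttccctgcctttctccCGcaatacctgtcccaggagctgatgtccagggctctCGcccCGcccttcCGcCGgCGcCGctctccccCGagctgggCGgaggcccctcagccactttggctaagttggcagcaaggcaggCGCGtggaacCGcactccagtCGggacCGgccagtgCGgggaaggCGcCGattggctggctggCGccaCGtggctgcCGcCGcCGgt
The windows of Hoxd13 and Hoxd1 held 31 and 24 CG, and that of Hoxd8 held 6. RefSeq windows of 300 bases, from 250 before to 50 after the start, were at hand for 22 of the 39 Hox genes, with 24 windows in all. Their median was 14.5 CG and their range 4 to 45, against a median of 7 over 32851 windows of all genes, of which 34.6% had at least the Hox median. On either strand, the TATA box TATAAA was in 4 of the 24 windows (16.7%, against 13.6% of all), among them that of Hoxd13. The nuclear receptor half-site AGGTCA was in 7 (29.2% against 16.3%), the CCAAT box CCAAT in 15 (62.5% against 37.4%) and the GC box GGGCGG in 10 (41.7% against 35.7%). The caudal motif TTTATGG was in 1 window (4.17% against 2.75%). The paralogous promoters are not independent of each other, and such matches describe letters and not binding.

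Set side by side, the sums of the clusters had their largest ratio between the groups in HoxD and their smallest in HoxC. The ratio of HoxD rests on 17 and 16 counts in WT. HoxD had 0.887 and 0.706 CPM in WT and 7.22 and 8.14 CPM in the libraries labelled Pim3-/-, 9.65 times as much in the mean. HoxB had 2.09 and 1.94 CPM against 10.8 and 12.4, 5.76 times as much. HoxA had 2.66 and 2.87 CPM against 9.69 and 16.4, 4.71 times as much. HoxC had 6.05 and 6.18 CPM against 11.2 and 15.7, 2.20 times as much. In WT, HoxC was above the other clusters in both libraries and HoxD below them, whereas in the group labelled Pim3-/- the values of HoxA, HoxB and HoxC overlapped and HoxD remained below all. In log2 units the ratios were 2.24 for HoxA, 2.53 for HoxB, 1.14 for HoxC and 3.27 for HoxD. Each sum is dominated by 1 or a few genes. With 2 libraries a group, an exact permutation test gives a p of 0.333 at best, and none was run on these sums.

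By paralogous group, the largest share of the transcripts lay in group 13, at the posterior end. The 4 genes of group 13 had 4.75 and 4.68 CPM in WT and 13.9 and 18.5 CPM in the libraries labelled Pim3-/-. Hoxc13 alone held 79.3% of this sum in WT and 55.9% in the group labelled Pim3-/-. Groups 2 and 3 had almost no counts in WT, 0 and 1 in group 2 and 0 and 3 in group 3, but 25 and 42 and then 41 and 89 counts in the libraries labelled Pim3-/-. The 15 central genes, of groups 4 to 8, had 2.98 ± 0.28 CPM in WT and 9.03 ± 3.24 CPM (SD, n = 2) in the group labelled Pim3-/-, of which Hoxc4 was the largest contributor in WT. No group had a lower sum in the libraries labelled Pim3-/-, but the sums of several groups do not rest on called genes. Groups 5, 6 and 11 had 0 tested genes, and group 12 had 1 tested and 0 that rose. Group 6 had 3 and 2 counts in WT against 9 and 11. In group 4, Hoxc4, which did not pass, held 50.3% of the CPM in the group labelled Pim3-/-.

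**Figure D3:**
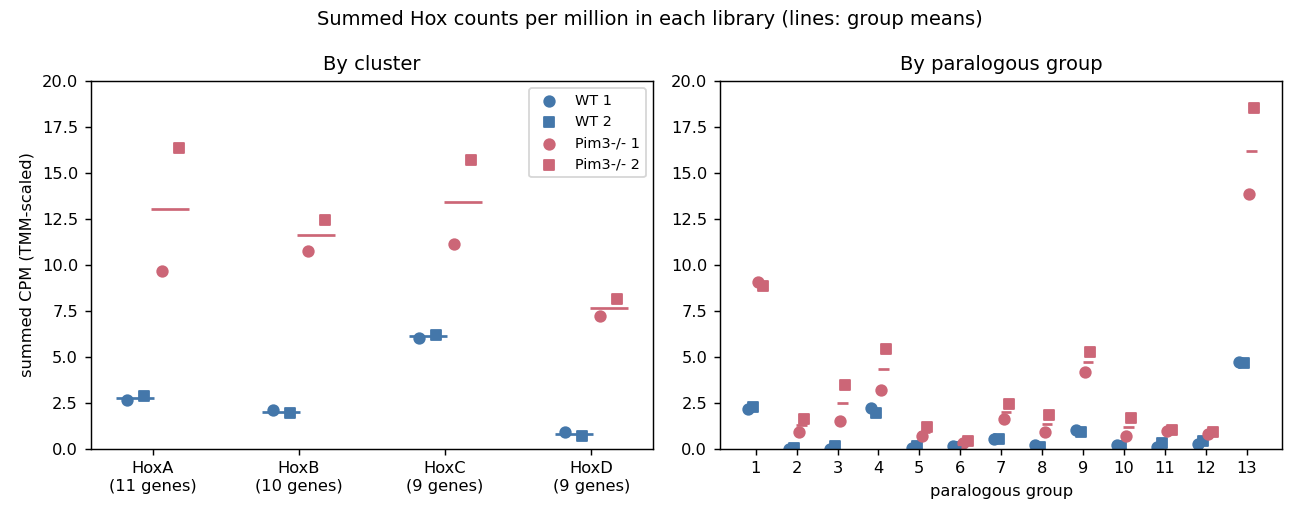
TMM-scaled CPM summed over the genes of each Hox cluster (left) and each paralogous group (right) in the 2 WT (blue) and 2 Pim3-/- (red) libraries, with lines at the group means. HoxD is the lowest cluster in every library, and group 13 is the highest paralogous group.

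Compared per kilobase of exon, in CPM per kb, some genes at the ends of clusters were among the highest, while others were low. Hoxb1 and Hoxa13, also at ends of clusters, had means of 0.041 and 0.101 in the libraries labelled Pim3-/-. In the group labelled Pim3-/- Hoxc13 had 2.96 and 4.39 CPM per kb, Hoxb13 1.92 and 2.35, and Hoxd1 1.55 and 1.35. Hoxc13 and Hoxb13 did not overlap, nor did Hoxb13 and Hoxd1, while Hoxd1 and Hoxb9, with 1.13 and 1.29 CPM per kb, lay close together. Below these, Hoxd13 with 0.904 and 0.858 and Hoxc4 with 0.729 and 0.966 CPM per kb overlapped. Among the genes given here, the order in WT was Hoxc13 (1.44 and 1.59), Hoxc4 (0.772 and 0.55) and Hoxb9 (0.385 and 0.291). Hoxd1 had 0.14 and 0.142 CPM per kb in WT, below Hoxc4 and Hoxb9, and was above both in the group labelled Pim3-/-.

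At or under 3 counts in both WT libraries were 26 of the 39 genes, 7 in HoxA, 7 in HoxB, 6 in HoxC and 6 in HoxD. In 8 of these no WT library had a count. Only 4 genes (Hoxa6, Hoxb6, Hoxc8 and Hoxd12) were at or under 3 counts in both libraries labelled Pim3-/-, and the same 4 were so in WT, so that no difference was detectable for them at this depth. No Hox gene was at 0 in both libraries labelled Pim3-/-. At least 10 counts in both libraries were reached by 5 genes in WT and by 18 in the group labelled Pim3-/-. Most Hox genes were therefore measured from few reads even where they rose.

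Some noncoding genes in and beside the clusters rose as well. Of 17 present in the table, 7 were tested, of which 4 rose, 0 fell and 3 did not pass, where 17.6% of all tested genes rose. All 4 that rose met the filter through the libraries labelled Pim3-/- alone. This favours genes that are high there, so their number is a description. With at least 10 counts in every library 2 were tested and 0 rose. Hoxb3os, antisense to Hoxb3, had 0 and 1 counts in WT against 29 and 37 in the libraries labelled Pim3-/-, a log2FC of 5.44 (SE 0.84, Benjamini-Hochberg adjusted p = 0.00562 in the quasi-likelihood test of edgeR). Haglr, between Hoxd3 and Hoxd1, had 2 and 5 counts against 47 and 34 (3.17, SE 0.58, adjusted p = 0.00836). Hoxa11os, antisense to Hoxa11, had 2 and 0 counts against 12 and 16 (3.33, SE 0.95, adjusted p = 0.0319). Mir196a-1, between Hoxb9 and Hoxb13, had 3 and 4 counts against 34 and 26 (2.73, SE 0.55, adjusted p = 0.0112). By contrast, Hotairm1, in HoxA, had 85 and 69 counts against 140 and 148 and did not pass (0.56, SE 0.31, adjusted p = 0.193), and Halr1, beyond the anterior end of HoxA, had 542 and 528 against 511 and 685 (-0.17, adjusted p = 0.56). Hotair had 0 counts except for 6 in Pim3-/- replicate 2, and Hottip had 1 count in all. Leaving out WT replicate 1 gave an adjusted p of 0.0542 for Hoxb3os, 0.097 for Haglr, 0.112 for Hoxa11os and 0.141 for Mir196a-1. Without WT replicate 2 it was 0.306 for Hoxa11os and 0.116 for Mir196a-1, and Hoxa11os was not called without Pim3-/- replicate 2.

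The clusters also hold microRNAs of the families miR-10 and miR-196, which are known to target Hox transcripts and are shown because Mir196a-1 was counted among the genes that rose. The mature sequences are from RefSeq on GRCm38.p6, 5′ to 3′, with the seed, bases 2 to 8, in capitals.
mmu-miR-196a-5p: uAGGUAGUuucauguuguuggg
mmu-miR-196b-5p: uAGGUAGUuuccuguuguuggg
mmu-miR-10a-5p: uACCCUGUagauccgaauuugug
mmu-miR-10b-5p: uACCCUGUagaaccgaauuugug
The first pair shares one seed and the second pair another. The sequence of mmu-miR-196a-5p lies in HoxB at chr11:96265187-96265208 on the + strand and also in HoxC, that of mmu-miR-196b-5p in HoxA at chr6:52230129-52230150 on the - strand, that of mmu-miR-10a-5p in HoxB at chr11:96317186-96317208 and that of mmu-miR-10b-5p in HoxD at chr2:74726074-74726096, both on the + strand. Mir10a, Mir10b, Mir196a-2, Mir196b and Mir615 had 0 counts in all 4 libraries. An mRNA library does not measure mature microRNAs, so the counts on Mir196a-1 give no level of the mature form.

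Several of these genes overlap, and how the counting treated strand and shared reads is not given in the sources used here. In the GENCODE annotation 10 Hox genes shared over 10% of their exon length with another gene, while 23 shared none. The share was 62.8% for Hoxd3, 52.9% for Hoxb3 (with Hoxb3os), 52.3% for Hoxd4 and 35% for Hoxa11 (with Hoxa11os), and 76.2% of Hoxb3os overlapped in turn. The values of these genes are uncertain, since reads from a gene and its partner may not have been told apart. Among the other genes that rose, the overlap was 27.3% for Hoxb2, 27.1% for Hoxa3 and 20.4% for Hoxa7.

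Genes known to act on Hox clusters were examined from lists. Of 19 genes of the retinoic acid pathway 17 were tested, of which 8 rose, 2 fell and 7 did not pass, where 17.6% and 16.2% of all tested genes rose and fell. Stra8, a retinoic acid response gene, had 200 and 195 counts in WT against 2702 and 1779 in the libraries labelled Pim3-/-, a log2FC of 3.16 (SE 0.24, Benjamini-Hochberg adjusted p = 0.00187 in the quasi-likelihood test of edgeR). Cyp26a1, an enzyme that degrades retinoic acid and is itself induced by it, had 1 and 4 counts against 64 and 72 (4.39, SE 0.59, adjusted p = 0.00446). Rxra, a nuclear receptor partner of the retinoic acid receptors, had 165 and 131 against 749 and 644 (1.88, SE 0.25, adjusted p = 0.00425). These 3 calls held without any single library. However, Cyp26a1 and 3 more of the 8 that rose (Cyp26b1, Rarb and Stra6) met the filter through the libraries labelled Pim3-/- alone, and of the 12 genes that met it on WT 4 rose, against 14.3% of all such genes. Without either WT replicate 3 of the list rose and 1 fell, and the calls of Cyp26b1, Stra6, Rara, Rarb, Rarg and Crabp2 were lost, in fits where 2.03% and 2.95% of all tested genes rose. Without Pim3-/- replicate 1 the median log2 fold change of the list was 0.84, against 0.71 in the full fit.

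Of the ParaHox and Cdx genes, close relatives and regulators of Hox genes, only 2 of 6 were tested, Gsx2 through the libraries labelled Pim3-/- alone. Cdx1 rose from 45 and 48 to 173 and 311 counts, a log2FC of 2.05 (SE 0.37, Benjamini-Hochberg adjusted p = 0.00801 in the quasi-likelihood test of edgeR). Gsx2, a forebrain gene, had 5 and 17 counts against 32 and 110 (2.39, SE 0.73, adjusted p = 0.0403). The adjusted p without WT replicate 1 was 0.0542 for Cdx1 and 0.205 for Gsx2, without WT replicate 2 it was 0.0568 and 0.0638, and for Gsx2 without Pim3-/- replicate 2 it was 0.0855. Cdx2 had 1 and 5 counts against 12 and 2, and Cdx4 had at most 4 counts in any library. Among 23 Polycomb and Trithorax regulators, 3 rose, 1 fell and 19 did not pass, smaller shares than the 17.6% and 16.2% of all tested genes. Kdm6b, a demethylase of the Polycomb mark H3K27me3, rose (1.44, SE 0.18, adjusted p = 0.00395), as did Cbx2 (0.74, adjusted p = 0.0243). Eed, a core subunit of the complex that sets this mark, fell from 197 ± 0.69 to 105 ± 6.99 CPM (SD, n = 2), a log2FC of -0.91 (SE 0.17, adjusted p = 0.00881). With library totals and no TMM factors, 11 of the 23 rose and 0 fell, where 35.8% of all tested genes rose. Eed then had -0.46 (adjusted p = 0.0683 in edgeR's test). Kdm6b without WT replicate 1 had an adjusted p of 0.0544, Eed of 0.0976 and Cbx2 of 0.321. Without WT replicate 2 Eed had 0.0749 and Cbx2 0.212. The number of calls in this list rested on the libraries used. Its median log2 fold change, 0.20 in the full fit, was 0.10 to 0.25 when a library was left out. The 9 TALE cofactors (Pbx, Meis and Pknox genes), which bind DNA together with Hox proteins, had 0 calls in either direction with edgeR and with DESeq2, and 1 gene in each direction had an unadjusted p under 0.05. Their log2 fold changes were -0.39 to 1.33. With library totals 4 of the 9 rose, where 35.8% of all tested genes did. Their median log2 fold change, 0.21 in the full fit, was 0.07 to 0.51 when a library was left out, and their number of calls changed as well.

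The protein-coding neighbours of the clusters differed in both directions, and more of them were lower. Of 24 genes within 1 Mb, chosen on both sides, 21 were tested, of which 2 rose, 10 fell and 9 did not pass, with a median log2 fold change of -0.49 against 0.07 for all tested genes, of which 17.6% rose and 16.2% fell. The count rested on the libraries used, while the median log2 fold change was -0.63 to -0.44 when a library was left out. The 2 that rose in the full fit flank HoxB, and Skap1 met the filter through the libraries labelled Pim3-/- alone. Ttll6, a tubulin-modifying enzyme 28.9 kb from HoxB, had 78 and 122 counts against 435 and 235 (1.42, SE 0.34, Benjamini-Hochberg adjusted p = 0.0178 in the quasi-likelihood test of edgeR), and Skap1, 96.3 kb away, had 5 and 5 against 35 and 22 (2.15, SE 0.55, adjusted p = 0.0223). Their adjusted p without WT replicate 1 was 0.155 and 0.196, and without WT replicate 2 it was 0.072 and 0.216. Skap2, 143 kb from HoxA, fell (-1.11, SE 0.16, adjusted p = 0.00486), and so did Hnrnpa1, an RNA-binding protein 204 kb from HoxC (-1.40, adjusted p = 0.00592), Atp5g1, an ATP synthase subunit 119 kb from HoxB (-1.61, adjusted p = 0.00839), and Hnrnpa3, 894 kb from HoxD (-1.05, adjusted p = 0.00983). Of these 4, Hnrnpa3 was lost without WT replicate 1 (adjusted p = 0.0801) or 2 (0.0793). The homeobox genes nearest to HoxA and HoxD, Evx1 and Evx2, had at most 5 and 1 counts in any library. With library totals, 5 of the 21 rose, 4 fell and the median was -0.04, where 35.8% of all tested genes rose. The lower neighbours therefore depend in part on the scaling. Among 11 tested homeobox genes of the head, 5 rose and 1 fell, where 17.6% and 16.2% of all tested genes did. Of the 5, Dlx2, Dlx3, Gbx1 and Lhx5 met the filter through the libraries labelled Pim3-/- alone. This favours genes that are high there, so the count is a description. With at least 10 counts in every library 1 of 6 rose. The number was 2 of 15 without WT replicate 1 and 1 of 15 without WT replicate 2. Dlx3 had 7 and 16 counts against 335 and 196 (4.20, SE 0.44, adjusted p = 0.00305) and its call held without any single library. Gbx1 (2.40, adjusted p = 0.0112), Lhx5 (2.89, adjusted p = 0.0137) and Otx2, a forebrain gene (1.28, adjusted p = 0.0101), rose as well. Without WT replicate 2 these 3 had adjusted p of 0.102, 0.164 and 0.0936, and without WT replicate 1 Lhx5 had 0.092 and Otx2 0.0972.

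**Figure D4:**
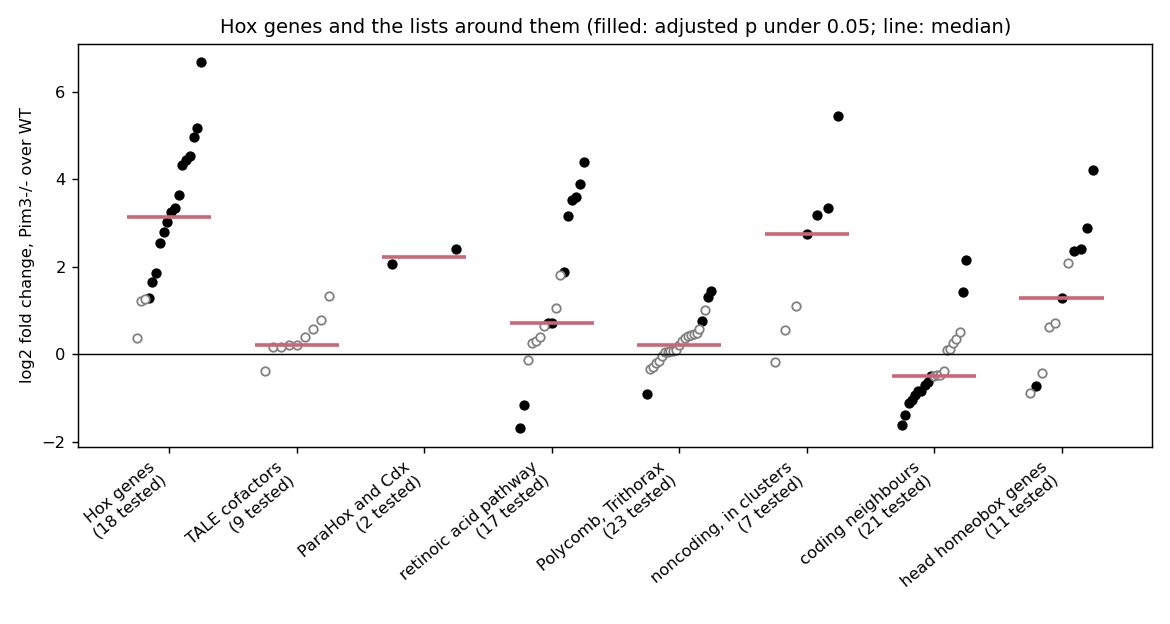
Log2 fold changes, Pim3-/- over WT, of the tested Hox genes and of the tested members of 7 lists around them, with filled points at an adjusted p under 0.05 and a line at each median. Of the 18 Hox genes 13 met the filter through the Pim3-/- libraries alone, against 1 of the 21 tested neighbours, so their medians, 3.12 and -0.49, are not comparable.

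Markers of the cells that a culture of ESCs can hold were set beside these values, and their part in the Hox values was not tested. In the full fit 17.6% of all tested genes rose and 16.2% fell. The 10 ESC markers summed to 9737 and 8795 CPM in WT and 5839 and 5624 CPM in the libraries labelled Pim3-/-. With edgeR's test, Klf4 rose (1.44, adjusted p = 0.00369), and Pou5f1 (-1.12, adjusted p = 0.00993), Nanog (-0.90, adjusted p = 0.0155) and Dppa5a fell. With library totals 3 of the 10 rose and 1 fell, where 35.8% of all tested genes rose. Without WT replicate 1 none of the 4 passed, and without WT replicate 2 only Klf4 did. The paper, by contrast, reports higher Nanog by qPCR and western blot in its Pim3-/- cells, and no change in Oct4 (Pou5f1). The sum of the 10 markers was lower in the libraries labelled Pim3-/-, yet at least 5624 CPM in every library. Of 9 tested primitive endoderm markers 8 rose, 3 of which met the filter through the libraries labelled Pim3-/- alone. Of the 6 that met it on WT 5 rose, against 14.3% of all such genes. The primitive endoderm list summed to 400.5 and 411.4 CPM against 541.2 and 568.5. Gata6, which specifies this lineage, had 11 and 19 counts against 240 and 112, and Sox7 3 and 0 against 91 and 67. Without WT replicate 1 the number that rose was 4 and without WT replicate 2 it was 6. The primitive streak and mesoderm list summed to 10.3 and 11.3 CPM against 23.3 and 31.3, of which only Eomes rose among 6 tested, while T had 6 and 9 counts against 14 and 5 and Mixl1 7 and 7 against 8 and 6. The neuroectoderm list, with 5 tested, summed to 139 and 130 CPM against 104 and 80.6. Sox3 rose and Tubb3 fell, the latter with an adjusted p of 0.247 under library totals, 0.17 without WT replicate 1 and 0.107 without WT replicate 2. Of the fibroblast markers, cells often used as feeders, 1 of 3 tested rose (Twist1, lost without either WT replicate and without Pim3-/- replicate 2), the sums were 25.6 and 24.4 CPM against 30.3 and 28.9, and Lum and Prrx1 were at 0 in all 4 libraries.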

How the data were processed

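RNA-seq of 2 WT and 2 Pim3-/- cultures of E14 ESCs was analysed, each of the 4 libraries being 1 replicate. The authors deposited raw gene counts that were not normalized. The paper names Cutadapt, Hisat2, mm10 and Ensembl genes, whereas the submitters' processing notes name Trim Galore, STAR, featureCounts and GRCm38. The strand setting and the treatment of reads with several locations are not given in the sources used here. A table of transposable elements was not used.

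The filterByExpr function in edgeR 4.0.16, with its minimum count of 10 and a minimum total of 15, retained 18444 genes. Counts were scaled by TMM factors (0.828 and 0.883 in WT, 1.17 and 1.17 in Pim3-/-) and tested with the quasi-likelihood F test of edgeR. Adjusted p are Benjamini-Hochberg values over every tested gene. The standard error is the log2 fold change divided by the square root of the F statistic. Ratios of scaled counts summed over the 2 libraries have exact binomial intervals. The gene models were those of GENCODE M21 for GRCm38, which held 55341 of the 55418 symbols and all 39 Hox genes. Promoters and microRNAs were from RefSeq. The steps were tested on simulated data and ran in R 4.3.3, with figures in Python 3.11.15 and matplotlib 3.10.9. Total counts per library set the precision, since 3 counts stand for 0.112 to 0.157 CPM.

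The Hox genes and all lists were chosen with earlier results of these data known. The 4 counts are given for Hox genes with at least 10 counts in some library, and fold changes for those with an adjusted p under 0.05 and the highest of each cluster. From other lists up to 4 members with the smallest adjusted p are named. Further names, and the genes with 3 printed promoters, were picked after their values were seen. Alternatives were the size factors of DESeq2 1.42.0, the Wald test of the same package, library totals, no filter, a minimum of 10 counts in each library, a replicate block and the omission of each library. Values of a few single genes are not reported here, though they are part of the counts and sums.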

Additional observations from a re-analysis of the deposited data

How the results depend on the processing

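The log2 fold change of every tested Hox gene was above 0 under all alternatives. With at least 10 counts in every library only 5 Hox genes were tested, and 4 rose, 3 of them at least 3-fold. When a library was left out, 3 to 18 Hox genes rose, 3 to 17 at least 3-fold, with the lowest numbers without a WT replicate. Then a group has 1 library, assumed to vary like the other group, so that by construction the spread comes from the complete pair alone. The Wald test of DESeq2 called 13, without Hoxd9 (adjusted p = 0.0549) and Hoxa10 (0.0536). The size factors of DESeq2 called 15, library totals 16 and no filter 17. Library totals moved the median of all genes by 0.45 (log2) and its calls from 3246 higher and 2987 lower genes to 6594 and 1094. For the tested Hox genes the median log2FC, 3.12, was then 3.57. It was 2.53 without a filter, 1.74 with 10 counts in every library and 2.63 to 3.13 without a library. The log2 ratios of the clusters became 2.69 (HoxA), 2.98 (HoxB), 1.58 (HoxC) and 3.73 (HoxD) with library totals, and without a library ranged over 1.79 to 2.55, 2.40 to 2.61, 0.85 to 1.34 and 3.03 to 3.39. In the 7 lists of pathways and neighbours, 24 members rose and 14 fell. With library totals 43 rose and 5 fell, with 10 counts in every library 12 rose, and without a library 5 to 40 rose and 4 to 20 fell. The causes of these shifts were not tested. The labels do not pair the replicate numbers, and the differences between replicates 1 and 2 in WT and Pim3-/- correlated at 0.02 across 18444 genes, which are not independent. With a replicate block 15 Hox genes rose, 14 at least 3-fold, and all tested genes called went to 3403 higher and 3272 lower. For 26 Hox genes, at most 3 counts in both WT libraries limited the size of a difference that could be given.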
